A study of Mus musculus with 18 samples.

Results

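Solute carriers are membrane proteins that move sugars, amino acids, nucleotides, metals, ions and vitamins across the plasma membrane or into and out of organelles, and the letters Slc open the symbol of each of their genes. The 151 genes described here are those of the 10509 genes in the deposited table (1.44%) whose symbol starts with Slc and a family number, leaving out the mitochondrial Slc25 family (30 genes) and the beta-cell genes Slc2a2 and Slc30a8. Membership rests on the symbol. Pancreatic islets were taken from 18 mice after 12 weeks of high-fat diet. In 10 of them (KO, genotype NRK1_BKO) Nmrk1, which encodes nicotinamide riboside kinase 1, an enzyme that makes NAD from a vitamin B3 form, was targeted with Ins1Cre, a recombinase expressed from the insulin gene Ins1 and so active in beta cells. The other 8 (WT, genotype NRK1_WT) carry the same line name in their titles, all mice ate the fat-rich diet, and the labels do not say whether WT mice carry the recombinase, nor give strain, age or sex. Whole islets were used, so each library holds alpha, delta, PP and other cells beside beta cells, and a lower transcript level from fewer cells of a type and from less RNA per cell cannot be told apart.

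In islets, carriers decide what a beta cell can sense and store. Sugar carriers feed glucose metabolism, cationic and neutral amino acid carriers bring in secretagogues and substrates for protein synthesis, zinc carriers fill the insulin granule and the early secretory pathway, and sodium, bicarbonate, chloride and calcium carriers set cell pH, chloride and calcium. Alpha cells use amino acid carriers to sense circulating amino acids. Vesicular and plasma membrane monoamine carriers handle serotonin and dopamine.

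The libraries were made with a kit that reads 1 tag near the end of each transcript. Levels in CPM (reads of a gene times a scaling factor of its library) are therefore not divided by gene length. They can be set side by side between genes. The factor did not follow the reads in listed genes alone. With 3292303 such reads in KO 3 and 3295299 in KO 6, 1 read was worth 0.390 and 0.265 CPM. Depth was 2831137 to 4303680 reads per library, of which 12193 to 21345 fell in the 151 genes (0.393% to 0.589% of reads). Without the reads of Ins1 and Ins2 the carriers held 0.911% to 1.08%. The beta-cell gene Ins2 (33.4% to 56.1% of reads) and the alpha-cell hormone gene Gcg (0.178% to 1.17%) were present in every library. The targeted gene gave little check of the labels: Nmrk1 was at 3.59 ± 1.26 CPM in KO (SD, n = 10) and 4.19 ± 2.77 in WT (SD, n = 8), a log2 difference of -0.03 (SE 0.35, limma adjusted p = 0.997). The removed stretch is not given in the labels, reads come from the transcript end, and other islet cells keep the gene. Ins1 held 4.42% ± 1.35 of reads in KO (SD, n = 10) and 7.24% ± 1.48 in WT (SD, n = 8). Its log2 difference was -0.68 (SE 0.33, limma adjusted p = 0.926), and the cause was not tested. KO 2, KO 3 and WT 7 had the most listed genes at 0 reads (320, 227 and 346). For several genes in which 1 of them stands apart, the value without it is given too. Nothing in the labels gives a batch, and p-values weigh a difference or slope against the spread between these libraries.

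The carrier repertoire was led by 11 genes over 100 CPM. A further 80 lay between 10 and 100 CPM and 60 under 10. The 5 highest held 30.7% of the summed carrier CPM, the 10 highest 47.3% and the 20 highest 61.5%. The median carrier was at 13.5 CPM, against 17.5 over all listed genes. The sum itself was 5002 ± 184 CPM in WT (SD, n = 8) and 5104 ± 166 in KO (SD, n = 10).

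**Figure D1:**
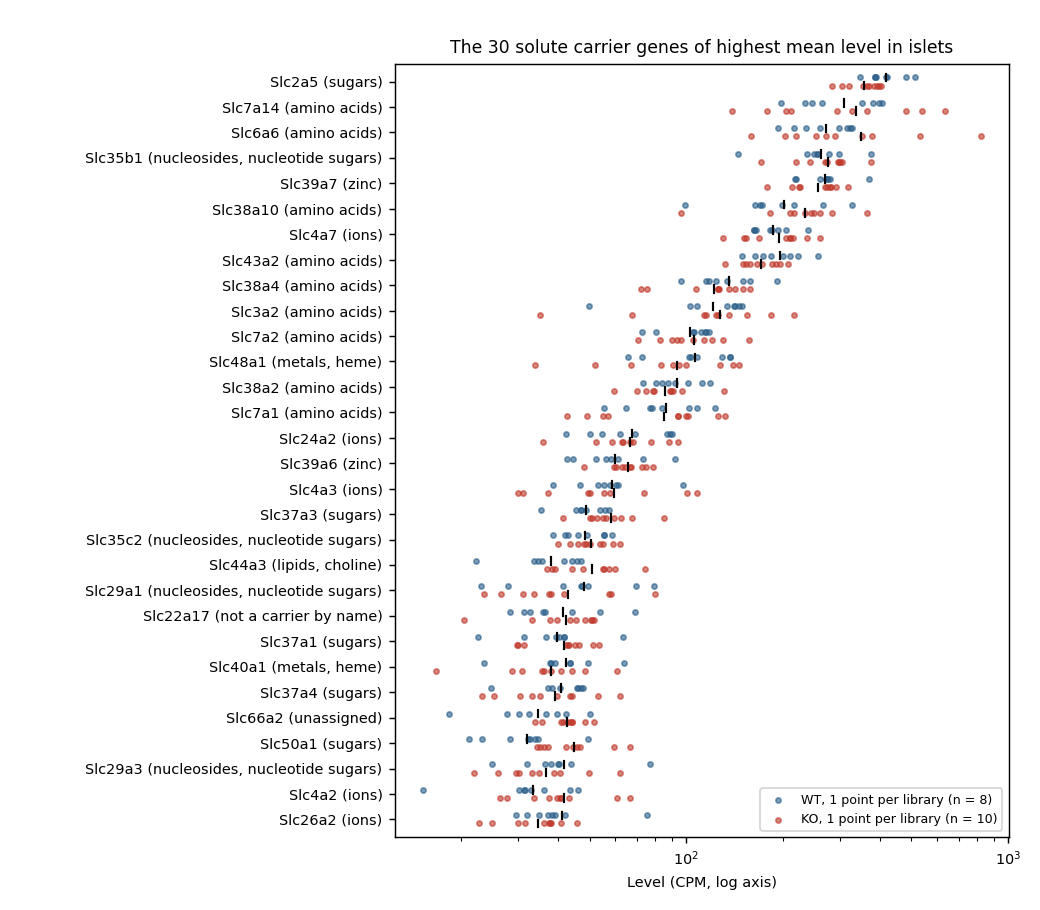
Level of the 30 solute carrier genes of highest mean, in CPM on a log axis, with 1 point per library (blue WT, red KO) and a black tick at each group mean. Slc2a5 leads at 383 CPM, and the KO and WT points of each gene overlap.

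Sugar carriers: Slc2a5, a facilitative fructose carrier, had the highest level of any of the 151 genes, 383 CPM on average, above 98.7% of all listed genes. Its lowest, median and highest values were 345, 401 and 512 CPM in WT and 283, 366 and 403 in KO. The groups overlapped, although each of the 10 KO libraries lay below the WT mean of 416. Slc2a1, the facilitative glucose carrier of most tissues, was far lower, at 14.8 CPM. The sugar phosphate carrier family followed, with Slc37a3 at 54.0 CPM, Slc37a1 at 40.7 and Slc37a4, which brings glucose 6-phosphate into the endoplasmic reticulum, at 39.8. Slc50a1, the only mammalian member of the SWEET sugar carriers, was at 39.0 CPM. The inositol carriers Slc5a3 (5.51 CPM) and Slc2a13 (2.33) and the urate carrier Slc2a9 (2.09) were near the bottom. The 14 sugar genes together made up 12.1% of carrier CPM, of which Slc2a5 alone was 7.58% of the total.

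Amino acid carriers formed the largest class, with 30 genes and 36.5% of carrier CPM. Slc7a14, a lysosomal relative of the cationic amino acid carriers, was at 325 CPM and Slc6a6, the taurine carrier, at 313. Both varied widely: Slc7a14 ran from 138 through a median of 310 to 634 CPM in KO, and from 197 through 308 to 404 in WT. Slc6a6 ran from 159 through 281 to 822 CPM in KO and from 193 through 278 to 326 in WT. KO 2 was the highest and KO 10 the lowest KO library for both genes. Without KO 2 the highest KO value was 540 CPM for Slc7a14 and 532 for Slc6a6, and the KO mean 304 ± 139 and 295 ± 112 (SD, n = 9). The log2 difference between KO and WT was 0.01 for Slc7a14 and -0.11 without KO 2, and 0.22 for Slc6a6 and 0.06 without KO 2. Slc38a10 (219 CPM), Slc38a4 (128) and Slc38a2 (89.3) belong to the family of sodium-coupled neutral amino acid carriers, and Slc43a2 (181) carries large neutral amino acids without sodium. Slc3a2, the heavy chain that takes several Slc7 light chains to the cell surface, was at 124 CPM. Its light chains were lower: Slc7a5 was at 21.9 CPM, Slc7a8 at 21.6, Slc7a6 at 7.50, the cystine-glutamate exchanger Slc7a11 at 3.17 and Slc7a7 at 2.08. Arginine and lysine enter through Slc7a2 (104 CPM) and Slc7a1 (85.7). Slc16a10, which carries aromatic amino acids, was at 37.1 CPM, Slc1a4, a carrier of alanine, serine and cysteine, at 17.9, and the glycine carrier Slc6a9 at 11.1.

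Zinc carriers numbered 15 and held 10.5% of carrier CPM. Slc39a7, which releases zinc from the endoplasmic reticulum and Golgi into the cytosol, was at 262 CPM, the highest of the class. Its values were 217, 272 and 368 CPM (lowest, median, highest) in WT and 179, 271 and 317 in KO. WT 5 stood above the other WT libraries and the groups overlapped. Slc39a6, a plasma membrane importer, followed at 63.2 CPM and Slc39a11 at 35.4. The Slc30 exporters described here, which leave out the beta-cell gene Slc30a8, were lower. Slc30a9 was at 31.0 CPM and Slc30a7, which loads the Golgi, at 14.98. Slc30a1, the plasma membrane exporter, was at 11.5 CPM and Slc30a5, of the early secretory pathway, at 7.06.

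Monoamine carriers were sparse, with 3 listed genes and 0.769% of carrier CPM. Slc29a4, the plasma membrane monoamine carrier, was at 24.4 CPM, with 12.3, 24.6 and 40.2 CPM in WT and 15.04, 21.2 and 39.97 in KO. Slc18a1, which loads monoamines into vesicles, was at 12.3 CPM, with 7.87, 11.7 and 14.9 CPM in WT and 8.26, 10.8 and 21.5 in KO. Slc22a2, an organic cation carrier, was at 2.28 CPM. The ranges of KO and WT overlapped for all 3. Slc18a2 and Slc6a4, the other vesicular carrier and the serotonin carrier, were not analysed here.

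Ion carriers (25 genes, 12.97% of carrier CPM) were led by Slc4a7, a sodium-bicarbonate carrier that loads base, at 190 CPM. Slc24a2, a potassium-dependent sodium-calcium exchanger, was at 67.3 CPM and the anion exchanger Slc4a3 at 59.2. The sodium-calcium exchanger Slc8a1 was at 3.79 CPM. Among chloride carriers, the importer Slc12a2 was at 24.6 CPM, above the exporters Slc12a7 (14.4) and Slc12a5 (6.34). The sodium-bicarbonate carrier Slc4a4 was at 13.4 CPM.

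In the remaining classes, nucleoside and nucleotide sugar carriers (24 genes, 13.8%) were led by Slc35b1, which exchanges ATP for ADP across the endoplasmic reticulum membrane, at 269 CPM. Slc48a1, which moves heme out of lysosomes, was at 99.2 CPM, the iron exporter Slc40a1 at 39.9, the copper importer Slc31a1 at 23.4 and the iron importer Slc11a2 at 23.3. Among monocarboxylate carriers, the creatine carrier Slc16a12 was at 35.8 CPM, Slc16a6 at 28.3 and the lactate exporter Slc16a3 at 13.5. The folate carriers Slc46a1 and Slc19a1 were at 14.5 and 9.38 CPM and the vitamin C carrier Slc23a2 at 9.63. The choline carrier-like gene Slc44a3 was at 45.2 CPM and Slc33a1, which carries acetyl-CoA into the endoplasmic reticulum, at 10.3. Of 5 genes that share the prefix but encode other proteins, the lipocalin receptor Slc22a17 was highest at 41.8 CPM. The kanadaptin gene Slc4a1ap was at 28.8 and the scaffold gene Slc9a3r2 at 20.6.

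**Figure D2:**
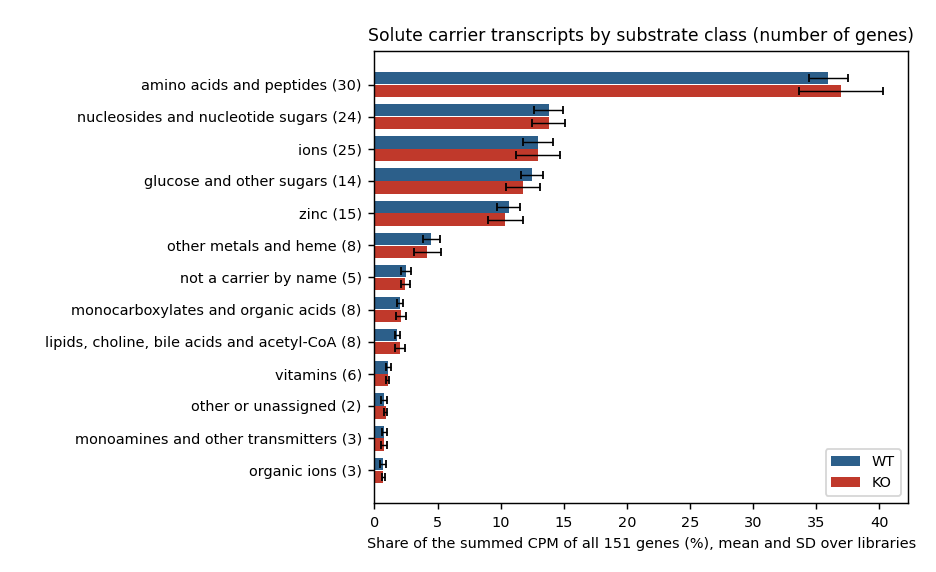
Share of the summed carrier CPM held by each substrate class in percent, with bars for the mean of WT (blue, n = 8) and KO (red, n = 10) and whiskers for the SD over libraries. Amino acid carriers hold 36.0% in WT and 36.9% in KO, and no class differs by more than the larger of its SDs.

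The share of each substrate class differed between KO and WT by less than the larger SD of the libraries. Amino acid carriers made up 36.9% ± 3.31 of carrier CPM in KO (SD, n = 10) and 36.0% ± 1.53 in WT (SD, n = 8). Zinc carriers made up 10.4% ± 1.38 and 10.6% ± 0.926, sugar carriers 11.8% ± 1.38 and 12.5% ± 0.899, ion carriers 12.97% ± 1.71 and 12.97% ± 1.17. Monoamine carriers were at 0.765% ± 0.238 and 0.774% ± 0.2004.

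Gene by gene, 0 of the 151 carriers passed limma's test between KO and WT (Benjamini-Hochberg adjusted p under 0.05 over 10509 genes), against 0.0% of all genes. At an unadjusted p under 0.05 limma gave 7 carriers, all higher in KO (4.64%), against 5.4% of all genes, 3.18% higher and 2.22% lower. Limma on reads recovered from the values (voom) called 0 and had 7 carriers under that p, against 5.2% of all genes. An exact permutation test called 0 and had 8, against 5.45%. These 8 were limma's 7 and Slc2a5, which was lower in KO (exact permutation p = 0.0193 unadjusted, 0.817 adjusted). The smallest adjusted p of a carrier was 0.811. In all, 80 carriers had a mean above WT and 71 below, with a median log2 difference of 0.01 against -0.0026 over all genes. No carrier had KO and WT ranges that did not overlap (0.00952% of all genes did). The 95% interval of the difference stayed within 2-fold for 112 carriers (74.2%), against 77.1% of all genes. For the other carriers a 2-fold difference was not excluded by the interval at this depth and number of mice.

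**Figure D3:**
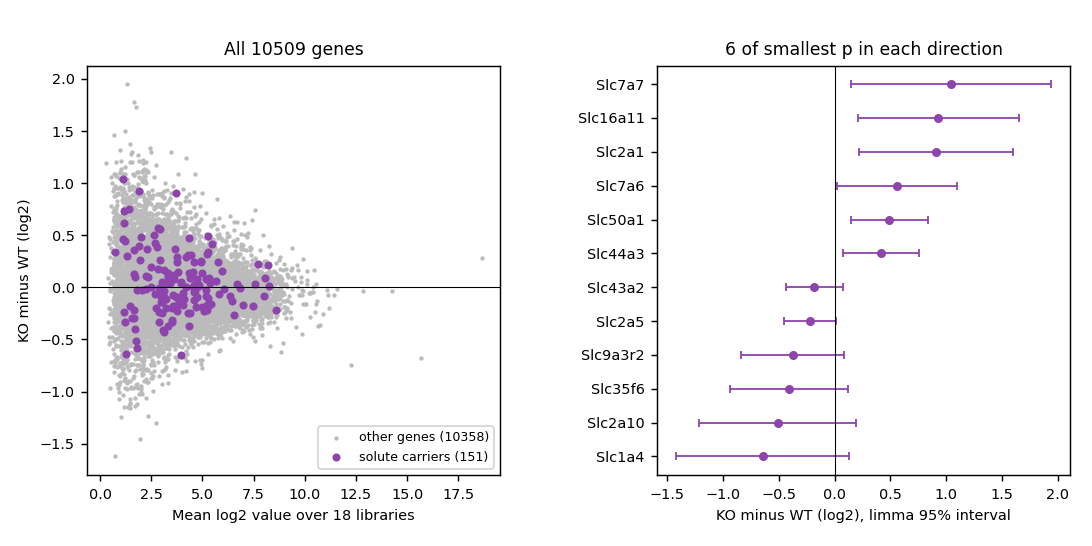
Left: KO minus WT log2 difference of each gene against its mean log2 value over 18 libraries, with the 151 carriers in purple and the other listed genes in grey. Right: the difference with its limma 95% interval for the 6 carriers of smallest p in each direction, from -0.65 for Slc1a4 to 1.04 for Slc7a7.

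The carrier of smallest p was Slc50a1. Its lowest, median and highest values were 34.2, 43.3 and 66.6 CPM in KO and 21.2, 32.4 and 49.3 in WT. Each of the 10 KO libraries lay above the WT mean of 31.9 CPM, and the ranges overlapped. The log2 difference was 0.49 (SE 0.17, limma adjusted p = 0.811).

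Slc2a1 values were 2.64, 18.2 and 32.3 CPM in KO and 4.89, 8.32 and 21.9 in WT. The KO library with 2.64 CPM was KO 2, and 9 of 10 KO libraries lay above the WT mean of 9.53. The log2 difference was 0.91 (SE 0.34, limma adjusted p = 0.878). Without KO 2, KO 3 and WT 7 it was 1.23 (limma adjusted p = 0.0996). Some stretches of neighbouring title numbers include KO and WT. Over the 12 libraries of these shared runs, with the run as a term, it was 0.24 (limma adjusted p = 0.854). Over the alternatives other than leaving out 1 library, its adjusted p ran from 0.0996 to 0.963.

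Slc16a11, a monocarboxylate carrier of low level, had 1.85, 4.61 and 10.3 CPM in KO and 0.724, 2.10 and 5.16 in WT. Its log2 difference was 0.93 (SE 0.35, limma adjusted p = 0.897). Slc44a3 had 36.9, 51.4 and 74.3 CPM in KO and 22.2, 38.6 and 47.1 in WT, a difference of 0.41 (SE 0.17). WT 7 held the lowest Slc44a3 value, and the difference was 0.31 (SE 0.16) without it.

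Both light chains that exchange cationic for neutral amino acids were among the 7. Slc7a7 had a difference of 1.04 (SE 0.44) from levels of 2.71 ± 1.15 CPM in KO (SD, n = 10) and 1.29 ± 1.25 in WT (SD, n = 8). These levels are near the floor: Slc7a7 had 0 reads in WT 5 and WT 7 and was at 0.272 CPM in WT 8. Slc7a6 had a difference of 0.56 (SE 0.26), from 8.84 ± 3.11 CPM in KO and 5.83 ± 2.04 in WT. The 7th gene was Slc66a2, with 42.6 ± 5.31 CPM in KO and 34.6 ± 9.74 in WT.

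On the lower side, Slc2a5 had a log2 difference of -0.22 (SE 0.11, 95% interval -0.45 to 0.01, limma adjusted p = 0.945). Slc1a4 had 1.13, 13.6 and 39.2 CPM in KO and 14.4, 17.1 and 29.98 in WT, a difference of -0.65 (SE 0.38). KO 2 held its lowest value, and the difference was -0.32 without KO 2 and -0.11 without KO 2, KO 3 and WT 7. The others of smallest p were Slc2a10 (-0.51), Slc35f6 (-0.41), Slc9a3r2 (-0.38) and Slc43a2 (-0.18).

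By class, amino acid carriers were lower in KO for 20 of 30 genes with a median log2 difference of -0.11. Nucleotide sugar carriers were higher for 15 of 24 (median 0.03), sugar carriers for 8 of 14 (0.08), zinc carriers for 8 of 15 (0.05) and ion carriers for 14 of 25 (0.04). The 6 Slc30 zinc exporters among these carriers leave out Slc30a8, which is listed too. Their differences were 0.05 (Slc30a1), 0.29 (Slc30a7, -0.06 without WT 7, its lowest WT library), -0.01 (Slc30a5), 0.24 (Slc30a9), 0.11 (Slc30a6) and -0.07 (Slc30a4). For the monoamine carriers they were -0.12 (Slc29a4), 0.12 (Slc18a1) and 0.74 (Slc22a2, SE 0.47). Slc22a2 is near the floor, with 0 reads in WT 2 and 0.295 CPM in WT 6.

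Of 19 partner genes that support carriers (chaperone subunits, the sodium and calcium pumps, chloride-sensing kinases, zinc buffers and regulators), 18 were listed. None passed limma's test, 8 were higher and 10 lower in KO, and 1 of the 18 had an unadjusted p under 0.05, a share close to the 5.4% of all genes. That was Atp1b3, a sodium pump subunit, with 47.8 ± 11.4 CPM in KO (SD, n = 10) and 34.0 ± 4.05 in WT (SD, n = 8), a log2 difference of 0.46 (SE 0.15, limma adjusted p = 0.805). Txnip, which limits glucose uptake by carriers such as Slc2a1, had a difference of 0.67 (SE 0.44). The sodium pump subunit Atp1b1 had one of -0.16 (SE 0.15).

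The alpha-cell score of a library is the mean log2 value of 10 listed alpha-cell markers, none of them a carrier, among them Gcg, Ttr, Irx1, Pou3f4, Gc, Etv1, Dpp4 and Smarca1. It ran from 4.26 in KO 4 to 5.85 in KO 7, with 5.002 ± 0.49 in KO (SD, n = 10) and 5.38 ± 0.33 in WT (SD, n = 8). The difference did not pass the test (exact permutation p = 0.0788, two-sided, adjusted 0.341 over 13 scores). The score moved with the scores of other islet endocrine cells: with delta-cell markers Pearson's r was 0.89 and Spearman's rho 0.90 (permutation p = 2e-05 and 1e-05, the latter the smallest they can give). With the PP-cell hormones r was 0.82 and rho 0.77 (permutation p = 4e-05 and 0.00033). Without KO 4 and KO 9, the libraries farthest from the median score, r was 0.84 and 0.69. Adjusted over 12 relations, these p-values were 0.00024 and 0.00012 for delta and 0.00024 and 0.00198 for PP. So a slope on the score is one on alpha-, delta- and PP-cell transcripts together. The other relations did not pass the test. The largest of them were negative, with the immune score (r = -0.47, permutation p = 0.0503, adjusted 0.201), the stromal score (r = -0.39) and the erythrocyte score (r = -0.37).

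Along the score, with genotype in the model, 0 of the 151 carriers passed limma's test, against 0.143% of all genes rising and 0.0571% falling. At an unadjusted p under 0.05 there were 11 carriers, 6 with a positive and 5 with a negative slope (7.28%), against 6.88% of all genes, 3.76% and 3.12% by direction. Voom called 0 carriers (0.124% of all genes) with 12 under that p (6.82% of all genes). A permutation test of r, which holds no genotype term, called 0 (0.0761%) with 5 under that p (5.31%). These were Slc5a6, Slc29a2, Slc50a1, Slc9a9 and Slc37a2, and only Slc9a9 was also among limma's 11. For Slc16a11 r was 0.29 (permutation p = 0.234). Slopes below are log2 units per log2 unit of score.

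The positive slopes of smallest p were those of Slc16a11 at 1.18 (SE 0.38, limma adjusted p = 0.395), Slc12a7 at 0.94, Slc35e2 at 1.33, Slc7a11 at 1.11, Slc2a6 at 1.21, and the zinc importer Slc39a10 at 0.86. The iron importer Slc11a2 (0.60) and Slc44a3 (0.38) came next. Among KO libraries, Slc16a11 was lowest in KO 4, the library of lowest score, and highest in KO 7, that of highest score. Its slope was 0.53 without the genotype term. The levels of Slc35e2, Slc2a6 and Slc7a11 came near the floor in KO 4, where Slc35e2 and Slc2a6 had 0 reads and Slc7a11 was at 0.264 CPM. Slc35e2 also had 0 reads in WT 1, WT 4 and WT 7, Slc2a6 in KO 10 and Slc7a11 in KO 3. How far these slopes rest on values at the floor was not tested.

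The negative slopes of smallest p were those of the iron exporter Slc40a1 at -0.66 (SE 0.22, limma adjusted p = 0.422), the endosomal sodium-proton exchanger Slc9a9 at -0.50, the folate carrier Slc46a1 at -0.70, the lysosomal nucleoside carrier Slc29a3 at -0.50 and the lysosomal peptide carrier Slc15a3 at -1.05. Slc19a1 (-0.63), Slc43a2 (-0.28) and the heme carrier Slc48a1 (-0.50) followed. Slc15a3 came near the floor in KO 5 (0.729 CPM) and WT 5 (0.714 CPM). Slc40a1 stood at 16.7 CPM in KO 6, its lowest library, and 64.1 in WT 7, its highest. Its slope was -0.59 without WT 7, and -0.12 in the 12 libraries of shared runs with the run as a term.

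Of the carriers known for alpha cells, Slc38a5, a glutamine carrier, had 0.528, 2.93 and 6.37 CPM in KO and 0.966, 3.48 and 7.14 in WT, and a slope of 0.75 (p = 0.12 unadjusted, limma). The cationic amino acid carrier Slc7a2 had a slope of 0.11 (p = 0.561 unadjusted, limma). Neither passed the test. By class, all 3 monoamine genes had a positive slope (0.50 for Slc18a1, 0.42 for Slc29a4 and 1.05 for Slc22a2), none of them past the test. Slc22a2 came near the floor, with 0 reads in WT 2 and 0.295 CPM in WT 6. Of the 14 sugar genes, 11 had a negative slope (median -0.18), and of the 30 amino acid genes 19 had a positive one (median 0.04). The median over all 151 was 0.03, against 0.02 over all genes.

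**Figure D4:**
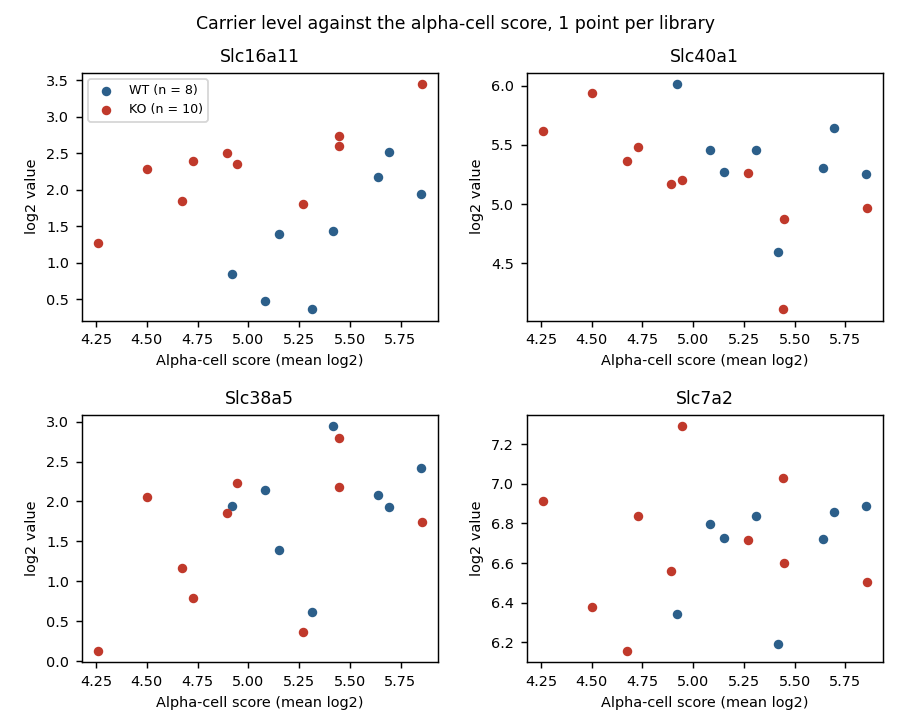
Log2 value of 4 carriers against the alpha-cell score, 1 point per library (blue WT, n = 8; red KO, n = 10). Slc16a11 has a slope of 1.18 and Slc40a1 of -0.66, Slc38a5 of 0.75 and Slc7a2 of 0.11, and none of the 4 passed the test.

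A further score was chosen after the values were seen. ATF4 is a transcription factor made when amino acids run short or the endoplasmic reticulum is stressed, and it drives amino acid carriers and synthesis enzymes. The ATF4-response score is the mean log2 value of 11 listed target or pathway genes (Atf4, Atf5, Ddit3, Trib3, Asns, Chac1, Psat1, Mthfd2, Nupr1, Cebpb and Ppp1r15a), none of them a carrier. Its range was 5.59 (KO 4) to 7.64 (KO 10). It averaged 6.60 ± 0.60 in KO (SD, n = 10) and 6.70 ± 0.37 in WT (SD, n = 8; exact permutation p = 0.684, two-sided, adjusted 0.889 over 13 scores).

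Of the 151 carriers, 2 rose along this score and 0 fell, against 0.285% of all genes rising and 0.0% falling. The share rising was 0.2% among the 10498 genes outside the score. At an unadjusted p under 0.05 there were 9 carriers (5.96%, against 5.94% of all genes, 3.33% rising and 2.61% falling). By direction, 6 of the 9 had a positive slope and all 6 were amino acid carriers: Slc7a1, Slc6a9, Slc7a11, Slc1a4, the glutamine carrier Slc38a7 and the lysosomal carrier Slc15a4. The 3 with a negative slope were Slc24a2, Slc7a2 and Slc22a17. The amino acid class as a whole was split, with 16 of 30 slopes positive, 14 negative and a median of 0.07.

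Slc7a1, an arginine and lysine importer, had 42.5, 93.9 and 132 CPM in KO and 55.3, 81.3 and 123 in WT. KO 4 was lowest and KO 10 highest, as for the score, and the groups overlapped. Its slope was 0.88 (SE 0.14, limma adjusted p = 0.00167).

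Slc6a9, the glycine carrier, had 2.90, 7.23 and 31.4 CPM in KO and 4.42, 12.8 and 16.4 in WT. Here too KO 4 was the lowest KO library and KO 10 the highest. Its slope was 1.37 (SE 0.25, limma adjusted p = 0.00583). Slc7a1 was called with any 1 library left out, and Slc6a9 lost its call without KO 4 (limma adjusted p = 0.0530), without KO 10 (0.189) and with the acinar score added (0.0629). Slc7a1 in turn lost its call (0.139) where the score held Atf4 and Ddit3 alone. In the 12 libraries of shared runs with the run as a term, slopes were 1.03 for Slc7a1 and 1.14 for Slc6a9, and neither passed the test (limma adjusted p = 0.496 and 0.736). Over the alternatives other than leaving out 1 library, the adjusted p ran from 0.00013 to 0.496 for Slc7a1 and from 0.00384 to 0.736 for Slc6a9.

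Slc7a11 and Slc1a4 had positive slopes that did not pass the test. Slc7a11 ran from 0 through 3.31 to 6.64 CPM in KO and from 1.01 through 2.95 to 5.71 in WT, with a slope of 1.29 (SE 0.41, limma adjusted p = 0.411). KO 3 held 0 reads of it, which allows up to 1.17 CPM (3 reads) by counting error alone. Slc1a4 had a slope of 1.04 (SE 0.35, limma adjusted p = 0.459), and of 0.87 without KO 2 (limma adjusted p = 0.0778). In the 12 libraries of shared runs the slopes were 0.08 (SE 0.75) for Slc1a4 and 0.68 (SE 0.99) for Slc7a11. Slc7a5 (0.49), Slc3a2 (0.26) and Slc38a2 (0.09), also named as ATF4 targets in general, had adjusted p-values from 0.884 to 0.990 in limma. The cationic carrier Slc7a2 had a slope of -0.39 (p = 0.00738 unadjusted, limma), opposite in sign to its relative Slc7a1.

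**Figure D5:**
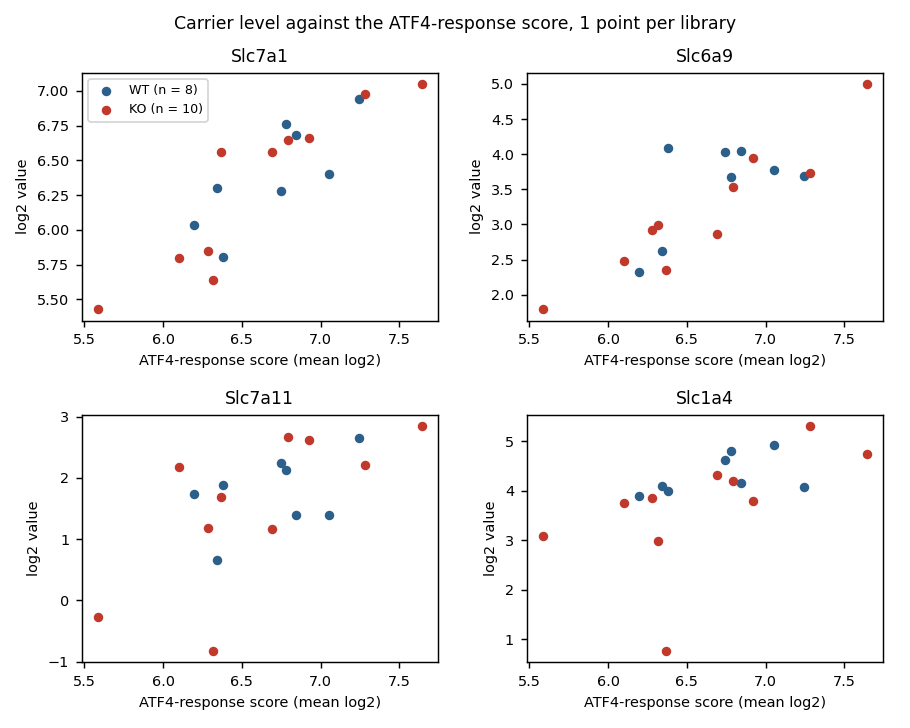
Log2 value of 4 amino acid carriers against the ATF4-response score, 1 point per library (blue WT, n = 8; red KO, n = 10). Slc7a1 and Slc6a9 have slopes of 0.88 and 1.37, and the KO and WT points overlap.

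Beside these slopes, the letters TGATGCAA were looked for, a form of the composite element bound by ATF4 with a C/EBP partner. Only these exact letters were searched, on both strands of RefSeq promoter windows (GRCm38.p6, 250 bases before to 50 after a start). Of the carriers 121 matched a gene with at least 1 window. The letters were in 5 of 165 carrier windows, from 4 genes, and in 294 of all 32851 windows (0.895%). The match and up to 20 bases on each side are shown because these are the carriers whose windows hold these letters. Capitals mark the match, and TTGCATCA is the same run on the other strand. The stretch is shorter where the window opens (Slc7a7) or the gene starts (Slc1a4) within these 20 bases.
Slc7a11, chr3:50443633-50443699, minus strand: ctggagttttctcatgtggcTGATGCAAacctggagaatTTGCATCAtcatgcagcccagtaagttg
Slc1a4, chr11:20332710-20332737, minus strand: cctccagcgtgcctcctgcgTTGCATCA
Slc50a1, chr3:89270732-89270779, minus strand: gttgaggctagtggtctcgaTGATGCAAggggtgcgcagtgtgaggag
Slc7a7, chr14:54417918-54417952, minus strand: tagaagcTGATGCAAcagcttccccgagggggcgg

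Slc7a11 has 2 copies in opposite orientation, opening at -66 and -47 from the start, and only 2 of all windows hold more than 1. In Slc1a4 the copy opens at -4, in Slc50a1 at -189 and in Slc7a7 at -243. The slopes of these genes on the score were 1.29, 1.04, 0.29 and -0.75, none past the test. The windows of Slc7a1 (2) and Slc6a9 (3), the carriers that passed it, do not hold these letters. That says only that this exact run is not within those stretches, and other forms of the element were not looked for. A match is a run of letters and no measure of binding.

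Zinc carriers were set against the metallothioneins Mt1 and Mt2, small zinc-binding proteins whose genes, like the zinc exporter Slc30a1, are induced through the zinc-sensing factor MTF1. The mean log2 value of both was also chosen after the values were seen. It was 10.0 ± 1.30 in KO (SD, n = 10) and 9.74 ± 0.89 in WT (SD, n = 8), and KO 2 stood apart at 6.54, against 9.57 to 11.2 in the other KO libraries. Along it 5 carriers rose (3.72% of all genes did) and 1 fell (1.18%), 4.9% of all genes in both directions. Slc30a1 had a slope of 0.42 (SE 0.12), Slc39a7 of 0.17, Slc2a1 of 0.60, Slc38a4 of 0.23, Slc2a9 of 0.55 and the taurine carrier Slc6a6 of -0.35. The number of carriers rising, 5 of 151, is near the share over all genes. Without KO 2 none was called in either direction (limma adjusted p = 0.869 to 0.899 for these 6), with slopes of 0.34 for Slc30a1 and 0.43 for Slc2a1. The remaining zinc carriers did not pass the test.

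The carriers were also set against markers of other cells in an islet preparation, a comparison added after the values were seen. P-values were adjusted within each score and not over the scores. Along the delta, PP, duct, endothelial, immune, adipocyte, erythrocyte and beta scores 0 carriers passed limma's test. Of all 10509 genes, 0 to 16 rose and 0 to 11 fell per score. The smallest limma adjusted p of a carrier there was 0.087 (immune score). The acinar and stromal scores each called 1 carrier. Along the acinar score (digestive enzyme genes), the aromatic amino acid carrier Slc16a10 rose with a slope of 0.23 (SE 0.05, limma adjusted p = 0.04995), 1 of 151 carriers against 0.476% of all genes, and the call was lost in 13 of 18 fits with a library left out. Acinar scores lay between 1.65 (KO 7) and 7.08 (KO 5). Along the stromal score (collagen and pericyte genes), the lysosomal carrier Slc7a14 rose with a slope of 0.85 (SE 0.18, limma adjusted p = 0.0366), 1 of 151 against 0.171% of all genes, and the call was lost in 12 of 18 such fits. The stromal score was highest in KO 2 at 3.99, the library with the highest Slc7a14 value of 634 CPM, and without it the slope was 0.76 (limma adjusted p = 0.0903). The part of acinar or stromal RNA in these levels was not tested.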

How the data were processed

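Islet RNA of 10 KO and 8 WT mice was read as tags near transcript ends. Per the submitters' processing notes, STAR 2.5.2, HTSeq 0.6.1 and edgeR were used on GRCm38. The authors deposited log2 values per gene, without counts. The floor is -0.83, and subtracting 0.562 CPM gave whole reads (tolerance 0.05) for 100% of values in each library, 1 read being worth 0.238 to 0.411 CPM. As the file holds log2 values and not counts, KO was set against WT with limma 3.58.1 in R 4.3.3 (mean-variance trend, two-sided, Benjamini-Hochberg over 10509 genes, adjusted p under 0.05), and slopes on marker scores with genotype as a covariate. The filter (log2 above 0 in at least 8 libraries) removed 0 genes. All 151 carriers were tested, and 14 had 0 reads in at least 1 library. Correlations used 100000 permutations. Intervals rest on the spread between libraries. Alternatives covered scaling, pseudocount (1), filter, variance model, covariates and libraries. The fits were tested on simulated data. Substrate classes were assigned by gene name.

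Named genes were the 3 of highest mean per class, the 6 of smallest p in each direction between KO and WT, the 8 in each direction along the alpha-cell score, and a list of carriers known in islets. Of that list 9 were not analysed here, and some named items of the lists are not reported here. Slc7a1, Slc38a2, Slc66a2, Slc38a7, Slc15a4, Slc30a9, Slc2a9 and other genes outside these rules were named after their values were seen. The members and lists were chosen with earlier results of these data known. 3 rows with a blank or repeated symbol stayed in the fits under their gene number. Library numbers (KO 1 to KO 10, WT 1 to WT 8) only name libraries.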

Additional observations from a re-analysis of the deposited data

Results flagged for a closer look

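In 156 groups of libraries (the named carriers and the scores, KO and WT apart), 14 had an end library separated from the rest by more than Dixon's 95% critical value. Chance flags about 1 group in 20. Values are log2. WT 7, one of the libraries with most genes at 0 reads, was lowest of WT for Slc3a2 at 5.65 (others 6.69 to 7.22), Slc44a3 at 4.51 (others 5.10 to 5.57), Slc22a15 at 1.14 and Slc30a7 at 1.14, and highest for Slc43a3 at 3.20. WT 5 was highest of WT for Slc39a7 at 8.53 (others 7.77 to 8.13) and for Slc22a23 at 5.597. KO 2 was lowest of KO for Slc2a1 at 1.68 (others 3.79 to 5.04), for Slc1a4 at 0.76 (others 2.997 to 5.31) and for the metallothionein score at 6.54 (others 9.57 to 11.2). KO 3 was lowest of KO for Slc38a10 at 6.59 and Slc10a7 at 0.43. KO 5 was lowest for Slc19a1 at 1.58, and KO 10 for Slc22a17 at 4.39. What sets these libraries apart was not tested.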

How the results depend on the processing

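The count of carriers called between KO and WT was 0 in each direction, and along the alpha-cell score 0 in each direction, under every alternative run and with each library left out in turn. The median KO minus WT difference was -0.02 to 0.03 with 1 library left out. No paired analysis was possible because the labels give no replicate numbers shared between KO and WT. Alpha-cell slopes changed sign with the delta-cell score added for Slc12a7 (-0.12), Slc7a11 (-0.39), Slc44a3 (-0.23), Slc46a1 (0.51), Slc29a3 (0.86) and Slc43a2 (0.25), and with the PP-cell score added for Slc7a11 (-0.95), Slc44a3 (-0.20), Slc29a3 (0.055) and Slc43a2 (0.11). The cause was not tested.

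Along the ATF4-response score the number of carriers rising was 1 to 2 with a library left out, 1 with the acinar score added, 0 in the 12 libraries of shared runs (fewer samples), and 1 rising (Slc6a9) and 1 falling (Slc24a2, seen after the fact) with a score of Atf4 and Ddit3 alone. Along the metallothionein score it was 0 to 7 rising and 0 to 2 falling with a library left out. Rising carriers numbered 2 with median centring, 2 without the trend, 3 without the genotype term, 1 with the stromal score added, 1 by voom, 0 without KO 2, KO 3 and WT 7, and 2 in shared runs. Falling carriers numbered 2 with quantile normalization, 2 with the alpha-cell score added, 0 with the stromal score, 3 by voom, 0 without KO 2, KO 3 and WT 7, and 0 in shared runs. The cause was not tested. Depth limits the 60 carriers under 10 CPM most, since 1 read is worth up to 0.411 CPM.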
